A study of Mus musculus with 10 samples.

Results

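The 10 genes described here form the axis by which leukaemia inhibitory factor (LIF) reaches the nucleus of a mouse embryonic stem cell (ESC): the ligand Lif, the receptor subunits Lifr and Il6st (gp130), the kinases Jak1 and Jak2, the transcription factor Stat3, the feedback inhibitors Socs2 and Socs3, and the kinases Pim1 and Pim3. They were taken from the table of normalized values by gene symbol, with the row of the highest mean where a symbol had several, and all 10 were found among the 20206 genes of the table. LIF binds Lifr, which then pairs with gp130, the subunit shared by the receptors of the interleukin 6 family. Jak kinases bound to the receptor phosphorylate Stat3, which enters the nucleus and switches on targets that include Socs3 and the Pim kinases, and Socs3 in turn binds gp130 and dampens the signal. In mouse ESCs LIF is added to the medium because Stat3 activity sustains self-renewal.

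RNA was sequenced from 10 undifferentiated wild-type C57Bl/6 ESC lines, all labelled male, 5 from blastocysts of mothers on a low protein diet (LPD, 9% casein) and 5 from blastocysts of mothers on a normal protein diet (NPD, 18% casein). Mothers were 7 to 9 weeks old at mating and ate the diet only until embryonic day 3.5, and the comparison asks which differences remain in lines cultured long after it ended. Each line came from 1 embryo, all from different mothers per the study's methods. All lines were derived on mouse embryonic fibroblast feeders in medium with LIF and knockout serum replacement, and RNA was taken from fibroblast-free culture, so both diets carry the same added ligand and the Lif transcript is not the LIF in the dish. The lines are LPD 1, 4, 6, 20 and 40 and NPD 8, 15, 21, 36 and 51, and values are listed in that order throughout. A value is a normalized estimated count per gene on a linear scale.

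The NPD lines held 20386819 to 23181581 read equivalents (how many times the worth of a single read went into their summed values). The LPD lines held 5841583 (LPD 4), 11247488 (LPD 40), 12338788 (LPD 6), 21885736 (LPD 1) and 24153918 (LPD 20). LPD 4, 40 and 6 lay below every NPD line, and the medians were 12338788 in LPD and 22211704 in NPD. Depth was thus partly tied to diet, so a fit with depth as a covariate cannot fully separate them. Even so, every one of the 10 genes was read in every line: the fewest read equivalents were 26, for Jak2 in LPD 4. The 6 markers of undifferentiated ES cells summed to 71686 to 97248 in each line, with the defining marker Pou5f1 between 18250 and 30420. For the Y-linked Ddx3y, LPD 4 held 173.8 and NPD 15 held 7.70 against 1110 to 1493 in the other 8 lines. The median of 334 X-linked genes was 0.49 higher on the log2 scale in NPD 15, while its deviation was 0 in LPD 4. These 2 lines stand apart from the male label in Ddx3y, and NPD 15 also in the X-linked median. Results are also given without both of them. In bulk RNA, fewer cells of a type and less RNA per cell cannot be told apart.

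Per kilobase of the longest protein-coding transcript, the targets and inhibitors stood far above the receptors. Pim1 came first with a normalized value of 1338 ± 370.8 per kb (SD, n = 10 lines), then Socs3 with 1200 ± 290 and Pim3 with 1154 ± 215. These 3 were not separated from their neighbours in the order: Pim1 exceeded Socs3 in 6 of 10 lines and Socs3 exceeded Pim3 in 6 of 10. Socs2 followed with 938 ± 177, below Pim3 in 8 of 10 lines. Stat3 at 325 ± 48.8 per kb lay below Socs2 and above Jak1 in 10 of 10 lines, and Jak1 at 251 ± 23.2 lay above Il6st in 10 of 10. The receptor subunits were uneven, with Il6st at 164 ± 17.7 per kb and Lifr at 104 ± 32.3, Il6st being the higher in 9 of 10 lines. Lif itself stood at 66.9 ± 34.1 per kb, below Lifr in 8 of 10 lines, and Jak2 was lowest in all 10 lines at 22.6 ± 6.92. The order runs from the 93.0th percentile of 13702 protein-coding genes for Pim1 to the 20.5th for Jak2. Divided by the union of all exons instead, Pim3, Pim1 and Socs3 changed places among themselves, the other 7 kept their ranks, and Socs2 dropped most, to a mean of 219 per kb, because its annotated exons together are 9531 bases long against 2222 in that transcript.

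**Figure D1:**
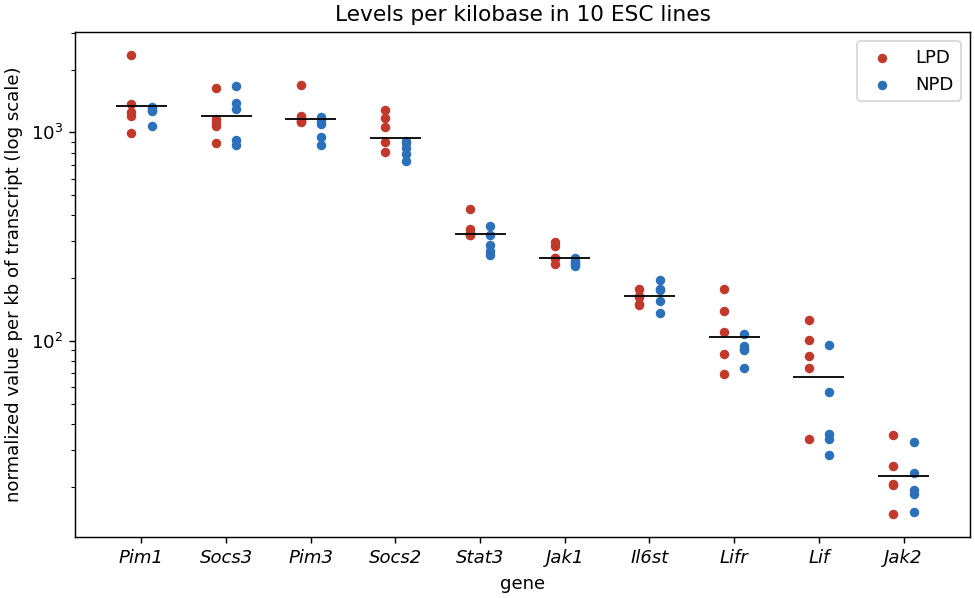
Normalized value per kilobase of the longest protein-coding transcript (log axis) for each gene in each of the 10 ESC lines, LPD in red and NPD in blue, with a bar at the mean of the 10 lines. Pim1, Socs3, Pim3 and Socs2 form an upper group with means of 938 to 1338, Stat3 and Jak1 lie at 325 and 251, and Jak2 lies lowest at 22.6.

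Between diets, the mean log2(value + 1) was higher in LPD lines for 8 of the 10 genes and lower for 2, with a median log2 fold change (LPD against NPD) of 0.19, against 0.00 over the 14354 genes tested, of which 50.5% were higher. The split of 8 and 2 was the same when every line was rescaled to 1 total and under quantile normalization. Only Socs2 had an unadjusted limma p under 0.05, 1 of 10 genes beside a background of 5.02% of all genes tested, with 2.84% of all genes higher and 2.18% lower in LPD. Lif, Stat3 and Pim3 had p between 0.05 and 0.1. With Socs2 they were the genes of the 10 with a p under 0.1, which 9.82% of all genes had. None of the 10 passed the Benjamini-Hochberg adjustment, with adjusted p from limma between 0.952 and 0.997, and none of the 14354 genes did at 0.1, while 721 of them had an unadjusted p under 0.05, 56.6% of these being higher in LPD (40.2% with every line rescaled to 1 total). With LPD 40 left out 40 genes passed at 0.1, none of the 10 among them. For 0 of the 10 genes were the diets free of overlap, and the background of genes without overlap was 1.02%. With 5 lines against 5 the exact permutation test could have given a p as low as 0.00794. Every fold change is a difference of log2(value + 1), so that for genes with low values it comes out smaller than the ratio of the values.

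**Figure D2:**
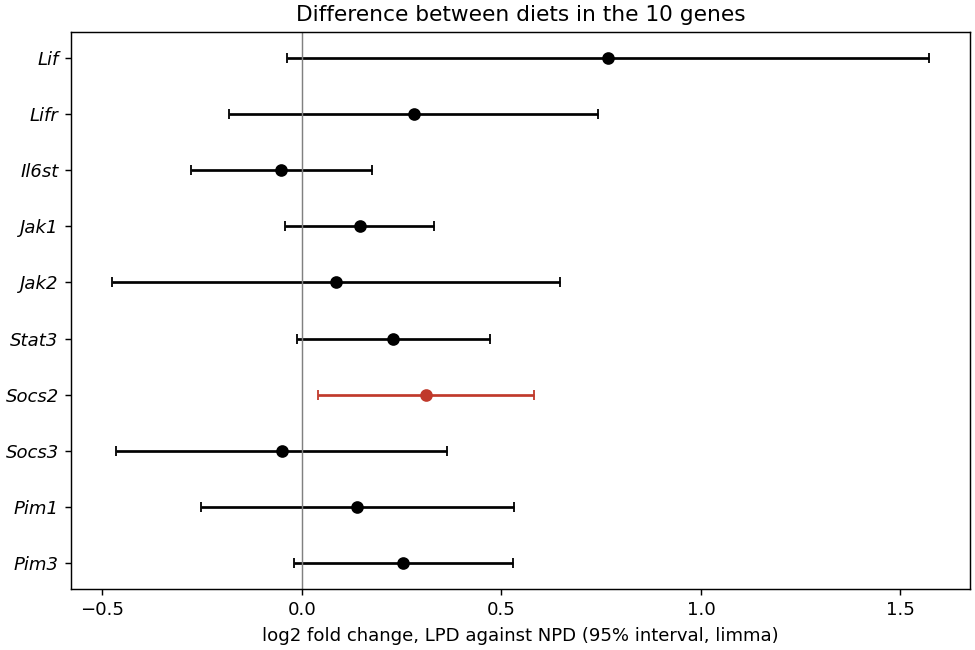
Log2 fold change, LPD against NPD, of the 10 genes from the limma fit over 5 LPD and 5 NPD lines, with bars for the 95% interval and the gene at an unadjusted p under 0.05 in red. Points lie right of 0 for 8 genes, and only the interval of Socs2, from 0.04 to 0.58, leaves out 0.

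The ligand Lif, on chromosome 11 (4257557 to 4272514, plus strand, GRCm38), measured 339.5, 505, 405, 299.5 and 137 in the LPD lines and 229, 383, 144, 136 and 115 in the NPD lines. The diets overlapped: LPD 40 sat among the 3 lowest NPD lines and NPD 15 above 3 of the 5 LPD lines. The means were 337 ± 136 in LPD and 201 ± 111 in NPD (SD, n = 5 lines each). The log2 fold change was 0.77 (SE 0.37, 95% interval -0.04 to 1.57), the largest of the 10 in size, with p = 0.0601 unadjusted and 0.994 adjusted by limma and 0.119 by the exact two-sided permutation test. Leaving out 1 line at a time moved it between 0.59 (without LPD 4) and 1.06 (without LPD 40, limma adjusted p = 0.464). It was 1.03 without NPD 15 and 0.86 without both LPD 4 and NPD 15, and without LPD 40, without NPD 15 or without that pair the unadjusted limma p was under 0.05. With depth as a covariate the fold change was 0.64, with an unadjusted limma p of 0.198. LPD 4, the line with the most Lif, was the shallowest library. LPD 40 held the fewest reads for this gene, 87 read equivalents.

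Lifr, the LIF-binding receptor subunit on chromosome 15 (7090614 to 7197489, plus strand), measured 1346, 1706, 672, 1068 and 840.5 in the LPD lines and 1047, 911, 717.5, 881 and 872 in the NPD lines. LPD 1, 4 and 20 were above every NPD line and LPD 6 was below every one, so the LPD lines spanned the whole NPD range. The difference was 0.28 (SE 0.21, limma p = 0.213, exact permutation p = 0.341), and it was 0.11 without LPD 4, 0.12 without both LPD 4 and NPD 15, and 0.45 without LPD 6, where the unadjusted limma p fell under 0.05.

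Il6st, the gene of gp130 on chromosome 13 (112464070 to 112510086, plus strand), was the steadiest of the 3 upstream genes, with 1410, 1429, 1544, 1292 and 1304 in LPD and 1537, 1702, 1348, 1516 and 1176 in NPD. All LPD values lay inside the NPD range. The log2 fold change was -0.05 (SE 0.10, 95% interval -0.28 to 0.17, limma p = 0.626, exact permutation p = 0.627), and the interval leaves out a change of 0.3 either way.

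Jak1, the main kinase of the gp130 receptors, lies on chromosome 4 (101152367 to 101265282, minus strand) and measured 1151, 1229, 1466, 1403 and 1227 in LPD and 1180, 1163, 1128, 1222 and 1142 in NPD. LPD 4, 6, 20 and 40 were above every NPD line and LPD 1 was inside their range. The gap is small, 1295 ± 133 against 1167 ± 36.6 (SD, n = 5), or 0.14 on the log2 scale (SE 0.09), with an unadjusted limma p of 0.117, an exact permutation p of 0.0635 and an exact Mann-Whitney p of 0.0556. Jak2, on chromosome 19 (29251828 to 29313080, plus strand), measured 126, 74.6, 178, 104 and 103 in LPD and 165, 118, 76.1, 97.1 and 92.4 in NPD. Its highest and its lowest line were both LPD lines, and its difference of 0.09 (SE 0.26, limma p = 0.746, exact permutation p = 0.746) turned to -0.08 without LPD 6.

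Stat3, on chromosome 11 (100885098 to 100939540, minus strand), measured 1942, 1950, 1998, 2599 and 2090 in LPD and 2157, 1742, 1557, 1633 and 1943 in NPD. LPD 20 was above all other lines, and the other 4 LPD lines, between 1942 and 2090, lay above 3 of the NPD lines, around NPD 51 and below NPD 8. The means were 2116 ± 276 and 1806 ± 244 (SD, n = 5), and the log2 fold change was 0.23 (SE 0.11, 95% interval -0.01 to 0.47, limma p = 0.0614, exact permutation p = 0.0952). It was 0.15 without LPD 20 and 0.30 without NPD 8, where the unadjusted limma p fell under 0.05. Stat3 shares 72 exon bases with Stat5a on the opposite strand, whose mean value was 193, and the sources used here do not say whether the libraries kept the strand.

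**Figure D3:**
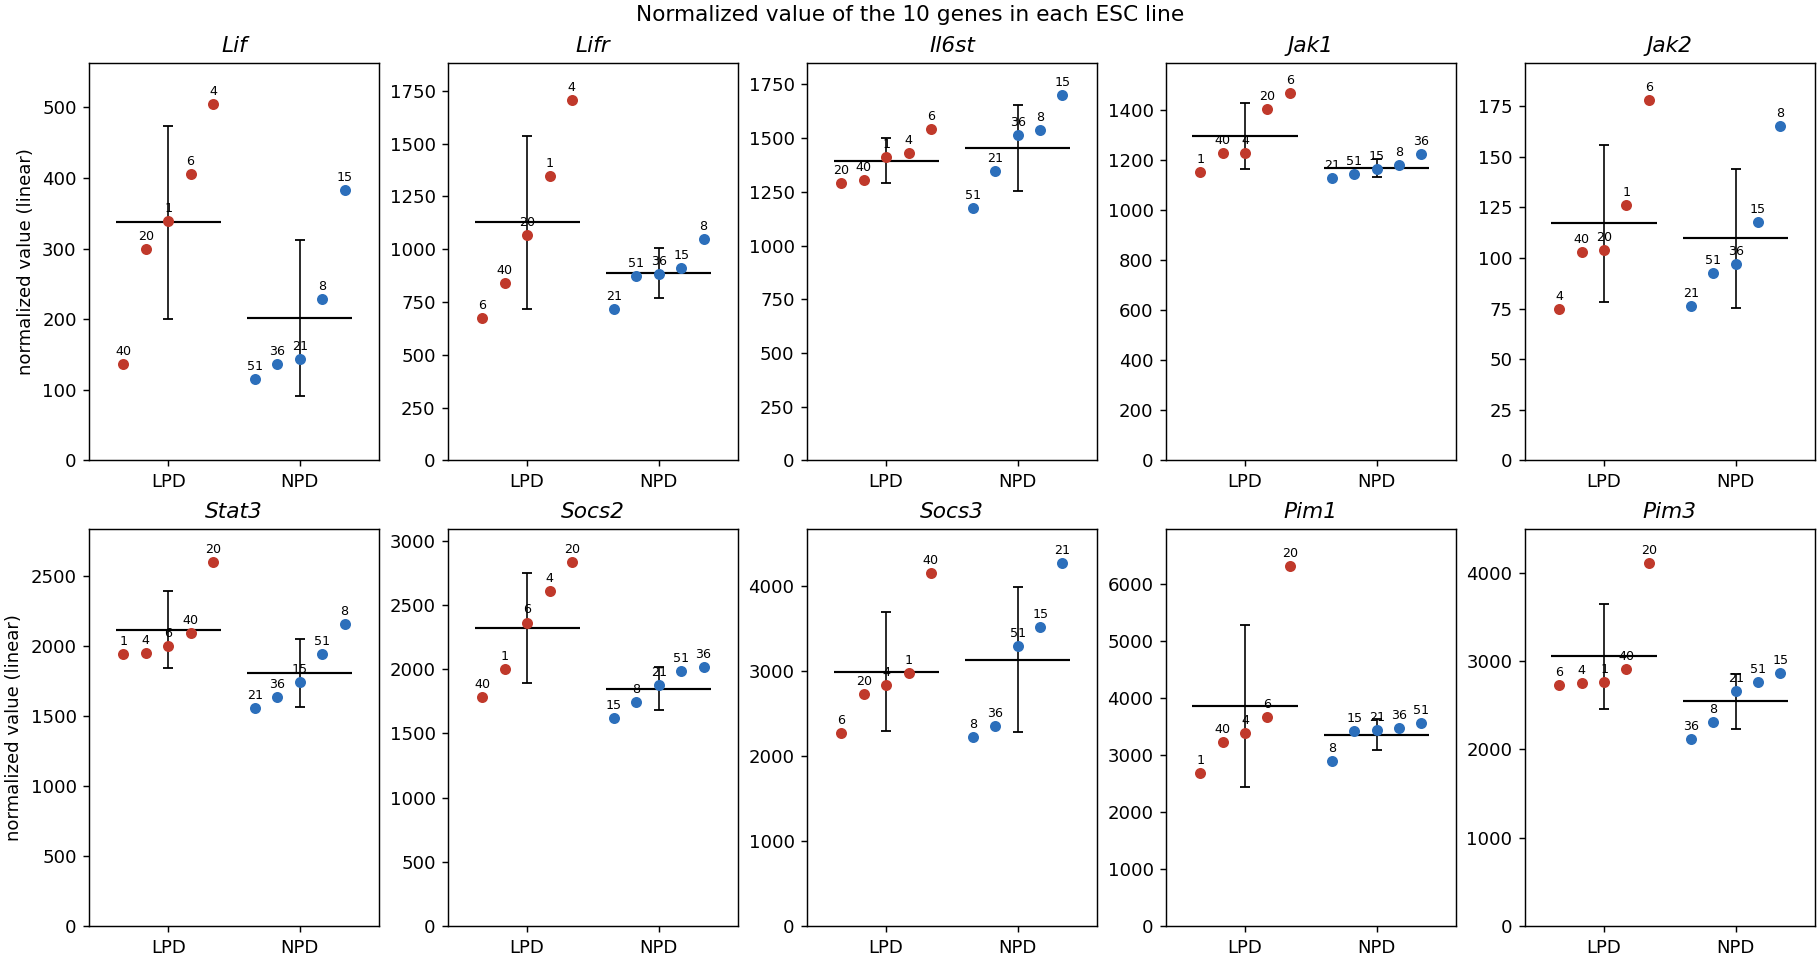
Normalized value (linear axis from 0) of each of the 10 genes in each ESC line, LPD in red and NPD in blue, numbered by line, with the mean (long bar) and SD (error bar, n = 5 lines). The diets overlap in all 10 panels, and LPD 20 is the top point for Stat3, Socs2, Pim1 and Pim3.

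The inhibitors split. Socs2, best known as a brake on growth hormone signalling through Stat5, lies on chromosome 10 (95385362 to 95417180, minus strand) and measured 2004, 2606, 2363, 2831 and 1786 in LPD and 1742, 1621, 1877, 2020 and 1982 in NPD. LPD 4, 6 and 20 were above every NPD line, LPD 1 was just below the highest, and LPD 40 was among the lower NPD lines. The means were 2318 ± 427.5 and 1848 ± 167 (SD, n = 5), and the log2 fold change was 0.31 (SE 0.12, 95% interval 0.04 to 0.58), with limma p = 0.0272 unadjusted and 0.952 adjusted and an exact permutation p of 0.0635. The unadjusted p rose past 0.05 without LPD 4 (0.26), LPD 20 (0.23), NPD 8 (0.29) or NPD 15 (0.26), and without both LPD 4 and NPD 15 (0.22). It did so too with depth as a covariate, where the difference was again 0.31.

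Socs3, the inhibitor that acts on gp130 itself, lies on chromosome 11 (117966079 to 117970047, minus strand) and measured 2972, 2838, 2266, 2731 and 4157 in LPD and 2223, 3519, 4268, 2351 and 3298 in NPD. High and low lines were found in both diets: LPD 40 and NPD 21 were the highest, and LPD 6, NPD 8 and NPD 36 the lowest. The log2 fold change was -0.05 (SE 0.19, 95% interval -0.47 to 0.36, limma p = 0.795, exact permutation p = 0.833), and its sign turned without LPD 6 (0.04) and without NPD 21 (0.07). At this spread between lines the values do not tell apart differences inside that interval.

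The Pim kinases, serine/threonine kinases that promote survival and are switched on by Stat3, were high in 1 line. Pim1, on chromosome 17 (29490753 to 29496112, plus strand), measured 2686, 3389, 3670, 6323 and 3235 in LPD and 2893, 3423, 3444, 3472 and 3569 in NPD. Apart from LPD 20, at 6323, all lines lay between 2686 and 3670. Pim1 shares 488 exon bases with the antisense gene Gm26885, which was not analysed here, so reads of the pair could not be told apart if strand was not kept. The log2 fold change of 0.14 (SE 0.18, limma p = 0.458, exact permutation p = 0.746) turned to -0.06 without LPD 20. Pim3, on chromosome 15 (88862186 to 88865726, plus strand), measured 2764, 2758, 2730, 4108 and 2914 in LPD and 2309, 2870, 2661, 2122 and 2760 in NPD. LPD 20 and LPD 40 were above every NPD line, LPD 20 by far. The difference was 0.25 (SE 0.13, 95% interval -0.02 to 0.53, limma p = 0.0672, exact permutation p = 0.103). It was 0.14 without LPD 20, 0.37 with depth as a covariate, 0.30 without NPD 15 and 0.33 without both LPD 4 and NPD 15, the last 3 with an unadjusted limma p under 0.05.

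The start regions of the 3 Stat3 targets among the genes, Socs3, Pim1 and Pim3, are shown because Stat dimers bind a short palindrome and these genes are the readout of the axis. The promoter sequences are RefSeq's on GRCm38.p6, which gave 11 windows of 250 bases before a start for 9 of the 10 genes, Socs2 being without an entry. Each line below gives the bases from 250 to 51 before the start, 5′ to 3′ on the gene's strand, with a match to the palindrome TTCNNNGAA in capitals. The windows are chr11:117969417-117969616 on the minus strand for Socs3, chr17:29490535-29490734 on the plus strand for Pim1 and chr15:88861944-88862143 on the plus strand for Pim3.
Socs3: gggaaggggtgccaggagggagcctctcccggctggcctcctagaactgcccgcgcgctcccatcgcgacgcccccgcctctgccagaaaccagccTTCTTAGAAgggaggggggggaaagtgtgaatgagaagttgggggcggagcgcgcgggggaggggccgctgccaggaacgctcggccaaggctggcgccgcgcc
Pim1: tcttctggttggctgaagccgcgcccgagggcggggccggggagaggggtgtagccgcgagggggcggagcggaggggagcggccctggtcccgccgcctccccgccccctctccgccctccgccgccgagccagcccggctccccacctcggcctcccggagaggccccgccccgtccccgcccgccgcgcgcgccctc
Pim3: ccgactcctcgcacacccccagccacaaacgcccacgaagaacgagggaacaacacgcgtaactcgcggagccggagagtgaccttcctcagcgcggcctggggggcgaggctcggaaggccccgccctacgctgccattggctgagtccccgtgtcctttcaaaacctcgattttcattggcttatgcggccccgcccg
The pattern TTCNNNGAA, which reads the same on both strands, occurred in 1 of the 11 full windows, that of Socs3, as TTCTTAGAA from 154 to 146 bases before the RefSeq start. It occurred in 7.02% of all 32851 promoter windows of that length. The narrower TTCCNGGAA, a special case of it, occurred in 0 of the 11 and in 0.913% of all. The first windows of Pim1 and Pim3 are rich in G and C, 82.4% and 68% of bases, against a median of 52.4% over all promoters, and that of Socs3 held 71.6%. A match is a stretch of letters and was not tested for binding. The transcript start of Socs3 in RefSeq lies upstream of that of its coding transcript in GENCODE. The bases just before the coding transcript's start were therefore not searched, and no statement is made on matches there.

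Differences between lines of the same diet were large for some of the genes and small for others. The within-diet SD of Lif on the log2 scale was 0.709, larger than in 96.3% of the 3855 genes with a mean within a factor of 2 of its own. Socs3 (0.361, 94.1%), Lifr (0.4, 93.8%) and Pim1 (0.34, 93%) were likewise near the top of their class. At the other end, Jak1 had an SD of 0.108, larger than in 10.4% of genes of like mean, and Il6st one of 0.162 (41.4%). Stat3 (0.184, 55.3%) was in the middle. From the lowest to the highest line Lif spanned 4.4-fold and Jak1 1.3-fold.

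LPD 20 was the line with the most extremes, the highest of the 10 for Stat3, Socs2, Pim1 and Pim3. Against the median of all lines it stood at 0.42 for Stat3, 0.51 for Socs2, 0.88 for Pim1 and 0.57 for Pim3 on the log2 scale, while its Socs3 was at -0.09 and its Il6st at -0.14. LPD 4 was highest for Lif (0.94) and Lifr (0.93), LPD 6 for Jak1 (0.29) and Jak2 (0.78). LPD 20 was also the deepest library. LPD 6 held a summed value of 8044 for the 5 trophectoderm markers against 1226 to 2400 in the other lines. Most of that sum came from Krt8 (4577) and Krt18 (3053). Cdx2 (29.2), Eomes (382) and Elf5 (1.92) were not at their highest in LPD 6. The part of depth or of these markers in the values of the 10 genes was not tested. High Socs3 was found in other lines, NPD 21 (0.56) and LPD 40 (0.52), where Lif was low (-0.86 and -0.93).

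**Figure D4:**
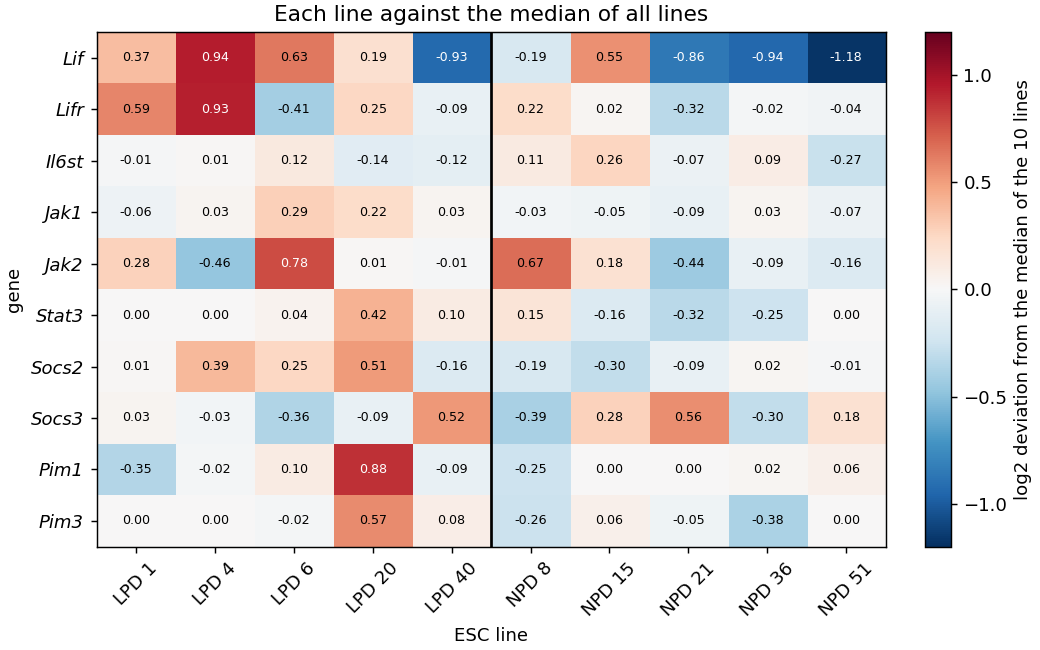
Log2 deviation of each line from the median of the 10 lines, genes in rows and ESC lines in columns, LPD left of the black line and NPD right of it, red above and blue below the median. LPD 20 is red for Stat3, Socs2, Pim1 and Pim3 (0.42 to 0.88), and the row of Lif runs from 0.94 in LPD 4 to -1.18 in NPD 51.

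Over the 10 lines, 4 of the 45 pairs of genes had a permutation p under 0.05 for Pearson's r, and 0 had an adjusted p under 0.1, the smallest being 0.487. Pim1 and Pim3 had r = 0.756 (permutation p = 0.0419) but a Spearman's rho of 0.0545 (permutation p = 0.89), and r was 0.301 without the 2 lines farthest from the median of Pim1, LPD 1 and LPD 20. Stat3 and Pim3 had r = 0.664 (permutation p = 0.0459) and rho = 0.394 (permutation p = 0.264), and without LPD 20 and NPD 21, the 2 lines farthest from the median of Stat3, r was 0.318. Socs2 had r = 0.661 with Pim1 (permutation p = 0.0289) and 0.692 with Jak1 (permutation p = 0.0292), with rho = 0.515 (p = 0.133) and 0.588 (p = 0.0806). Without the 2 lines farthest from the median of Socs2, LPD 20 and LPD 4, r was 0.29 for Socs2 and Pim1 and 0.678 for Socs2 and Jak1, and without those farthest for Jak1, LPD 20 and LPD 6, the latter was 0.372. With LPD 20 alone left out, r was 0.0778 for Pim1 and Pim3, 0.228 for Stat3 and Pim3 and 0.28 for Socs2 and Pim1, so these 3 relations rest on that line, while Jak1 and Socs2 had an r of 0.543. Stat3 and its target Socs3 had r = -0.308 (permutation p = 0.392, rho = -0.467, p = 0.18, and r = 0.0436 without the 2 farthest lines), and the r of Socs3 was negative with 8 of the other 9 genes.

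Of the 10454 other genes with a mean of at least 100, those whose log2 values ran closest to Lif over the 10 lines were Dcaf17 (Pearson's r 0.946), Shb (0.942), an adaptor of receptor tyrosine kinases, and Atrnl1 (0.934). Closest to Stat3 were Hacd2 (0.935), Atl2 (0.898) and the aldehyde dehydrogenase gene Aldh2 (0.89). Closest to Socs3 were Rpl27-ps3 and Gm11518 (0.975 each), processed pseudogenes of mean 2279 that carry the same values as another gene, so that their reads cannot be assigned to 1 gene. These are the top of a ranking of r over 10 points, given as a description.

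Socs3 followed the ribosomal protein genes over the lines, a comparison chosen after the genes closest to it were seen. The mean log2(value + 1) of 81 cytosolic ribosomal protein genes was highest in LPD 40 (14.06) and NPD 21 (13.97), the 2 lines with the most Socs3, and lowest in NPD 36 (13.6) and NPD 8 (13.64), where Socs3 was at 2351 and 2223. Pearson's r was 0.87 and Spearman's rho 0.78 over the 10 lines, with r of 0.83 without the 2 lines farthest from the median ribosomal value and 0.91 without LPD 4 and NPD 15. The other 9 genes had r between -0.44 (Il6st) and 0.45 (Pim3). These relations are descriptions, since all values of a line share 1 library and 1 scaling.

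Il6st ran with the markers of fibroblasts, the cells the lines were derived on. The 7 fibroblast markers summed to 361, 613, 3175, 302 and 291 in the LPD lines and 2002, 5390, 372, 1039 and 401 in the NPD lines. The 4 lines with the highest sums, NPD 15, LPD 6, NPD 8 and NPD 36, were also the 4 with the most Il6st. Pearson's r on the log2 scale was 0.87 and Spearman's rho 0.85, and r was 0.77 without the 2 lines farthest from the median sum. Of the 7 markers 4 were above 0 in every line, the defining marker Col1a1 among them at 131 in LPD 40 to 2709 in NPD 15, and Lum was listed at 0 in 7 of 10 lines. Over all 10 lines the other genes had r between -0.43 (Socs3) and 0.59 (Jak2), but without the 2 farthest lines Socs3 had r = -0.75 and Pim3 r = -0.71, close in size to the 0.77 of Il6st and of the opposite sign. For Lif r was 0.42, rho 0.36 and r without the 2 farthest lines 0.049, and NPD 15, its highest NPD line, held the most fibroblast markers. The part of fibroblast RNA in the values of these genes was not tested.

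**Figure D5:**
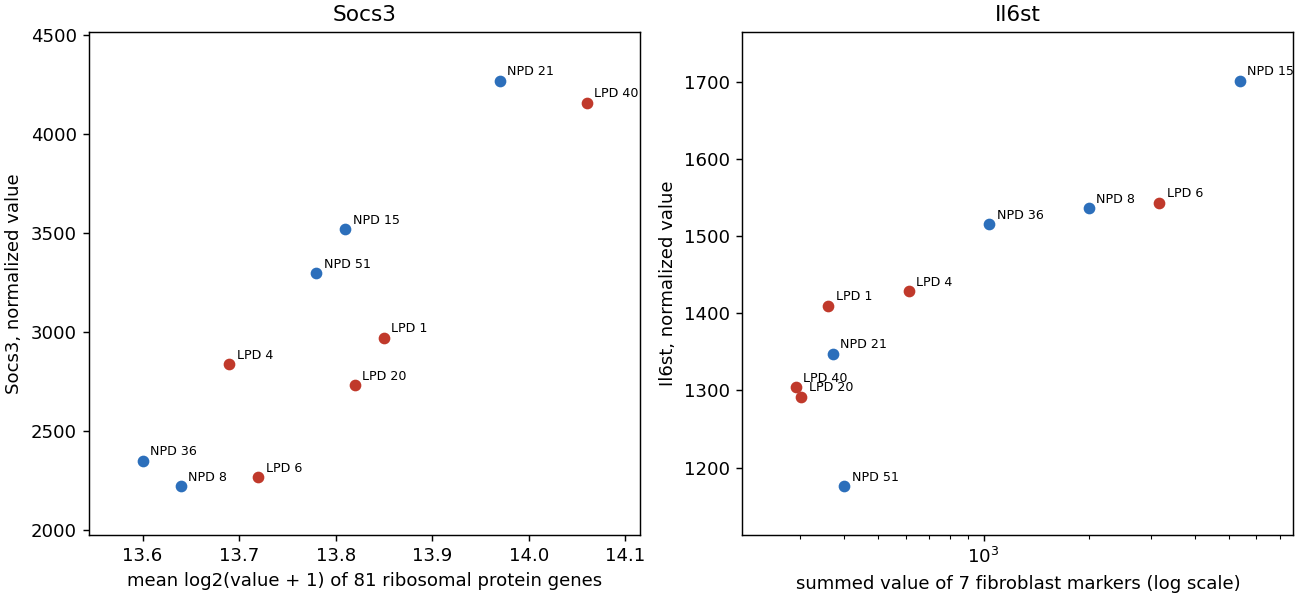
Left, normalized value of Socs3 against the mean log2(value + 1) of 81 ribosomal protein genes in each of the 10 ESC lines. Right, normalized value of Il6st against the summed value of 7 fibroblast markers (log axis), LPD lines in red and NPD lines in blue. Socs3 runs from 2223 in NPD 8 to 4268 in NPD 21 and climbs with the ribosomal mean (r = 0.87), and Il6st from 1176 in NPD 51 to 1702 in NPD 15, the line with the highest fibroblast sum.

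Around the 10 genes, 55 further genes of the pathway were compared in 6 lists, and 50 of them passed the filter on low values. An unadjusted limma p under 0.05 was found for 6 of the 50 (12%, against 5.02% of all genes tested), 4 higher and 2 lower in LPD, and none passed adjustment with all lines in the fit. Without LPD 40, 2 of the pathway genes had a limma adjusted p under 0.1, Klf5 (0.61, adjusted p = 0.0509) and Junb (1.84, adjusted p = 0.0943). Of all 14384 genes tested in that fit 40 had one. The median log2 fold change of the 50 was -0.02, with 23 higher and 27 lower. With depth as a covariate 2 of the 50 had an unadjusted limma p under 0.05, beside 600 of all 14354 genes tested in that fit. The lists were chosen with earlier results of these data known, so the 12% beside 5.02% is no test of the pathway. They were described only by their counts and medians.

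Among the other ligands of the interleukin 6 family, 0 of 5 tested genes had a p under 0.05, and all had values of at most 114 in any line. Smallest was the p of Ctf1, cardiotrophin 1, with 31.1 to 39.8 in LPD and 36.3 to 60.6 in NPD (-0.35, limma p = 0.159, exact permutation p = 0.0556). Of the 5 other receptors of the family 0 had a p under 0.05, Il27ra coming closest (0.74, limma p = 0.0851, exact permutation p = 0.0635) at values of 5.13 to 28.5. In the branch that runs from gp130 through the phosphatase Shp2 to the MAPK cascade 0 of 5 genes had a p under 0.05. All 5 had a lower mean in LPD, as had 7107 of all 14354 genes tested. Their differences were small, from -0.11 to -0.01 with a median of -0.05. The adaptor Grb2 had the smallest p of this branch (-0.05, limma p = 0.563, exact permutation p = 0.516). These are RNA values and do not measure signalling activity. In immunoblots of LPD and NPD lines the paper reported lower ERK activation in LPD at similar total ERK. It found no difference between diets in STAT3 phosphorylation or total STAT3.

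Among the other Jak and Stat genes 7 of 8 were lower in LPD, as were 7107 of all 14354 genes tested. The median of the 8 was -0.11. Stat2, which acts in interferon signalling, was the only one with a p under 0.05, at 628, 437, 408, 294 and 515 in LPD and 609.5, 657, 645, 637.5 and 556.5 in NPD. LPD 4, 6, 20 and 40 lay below every NPD line, and LPD 1 inside their range. The difference was -0.49 (SE 0.17, limma p = 0.0135 unadjusted and 0.839 adjusted, exact permutation p = 0.0238), between -0.61 and -0.34 under the alternatives.

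Of the 13 other negative regulators 1 was higher and 1 lower at a p under 0.05. Socs6, a further member of the SOCS family, measured 599, 759, 750.3, 637 and 681 in LPD and 538, 549, 513, 533 and 599.5 in NPD, so that LPD 4, 6, 20 and 40 were above every NPD line (0.32, SE 0.10, limma p = 0.0062, exact permutation p = 0.0159). Pias3, a protein inhibitor of Stat3, measured 538, 424, 628, 494 and 537 in LPD and 733, 745.5, 638, 829 and 573 in NPD, so that 4 of 5 LPD lines were below every NPD line (-0.42, SE 0.13, limma p = 0.00639, exact permutation p = 0.0159). With depth as a covariate the differences were 0.21 and -0.34, and neither had an unadjusted limma p under 0.05.

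The 14 other tested genes reported as LIF or Stat3 targets in ESCs divided evenly, 7 higher and 7 lower in LPD, and 3 had a p under 0.05, all higher. Klf5, a pluripotency factor, measured 5664, 6688, 7097, 7415 and 4679 in LPD and 3839, 4166, 4795, 4406 and 4772 in NPD. All LPD lines but LPD 40 were above every NPD line (0.51, SE 0.12, limma p = 0.00138, adjusted p = 0.451, exact permutation p = 0.0238). The paper's own Sleuth test, made on transcripts rather than genes, listed a Klf5 transcript as higher in LPD under its FDR cut-off of 0.1. The immediate early genes Junb and Zfp36 were high in LPD 1 and 4 above all, Junb at 2389 and 2584 and Zfp36 at 1117 and 1476, against at most 544 and 494 in any NPD line. Their differences were 1.39 (SE 0.48, limma p = 0.0127, exact permutation p = 0.0556) and 0.95 (SE 0.31, limma p = 0.00845, exact permutation p = 0.0238), and with depth as a covariate 1.21 and 0.71, no longer with an unadjusted p under 0.05. Without both LPD 4 and NPD 15 they were 1.08, with an unadjusted limma p above 0.05, and 0.64, with one under 0.05. Without LPD 40, the LPD line lowest in both, they were 1.84 and 1.17. Of the other genes of the list some lay near 0, such as Klf4 at -0.01 (SE 0.11, exact permutation p = 0.929) and Tfcp2l1 at -0.04 (SE 0.12, exact permutation p = 0.762). Others lay farther from 0 in either direction, such as Myc at 0.49 (SE 0.42, exact permutation p = 0.397) and Ier3 at -0.52 (SE 0.5, exact permutation p = 0.405). Klf4, Tfcp2l1, Myc and Ier3 were named after their values were seen.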

How the data were processed

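RNA sequencing of 10 mouse ESC lines, 5 LPD and 5 NPD, was analysed, with each line as 1 replicate and 0 columns without a mapped line. Per the paper and the submitters' processing notes, the authors trimmed adaptors with cutadapt, quantified transcripts with Salmon on GRCm38 (mm10) transcripts and tested them with Sleuth 0.30.0. The signal the authors deposited is 1 normalized estimated count per gene and line, which its file name attributes to DESeq2. How transcripts were joined into genes, and the strand of the kit, are not given in the sources used here. Only 66.2% to 72.0% of low values were whole multiples of 1 read (tolerance 0.15), so no count model was run.

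Genes averaging 10 or more over the lines, 14354 in all, were fitted as log2(value + 1) with limma 3.58.1 in R 4.3.3 (trend, no covariate), with Benjamini-Hochberg adjustment over all of them and thresholds of 0.1 and 0.05. The code of the fit was run on simulated data with the same dispersion for every gene, unlike the differing spreads between lines found here. Exact permutation tests were two-sided and compared mean log2 values. Pairs were tested with 100000 permutations. Lines share no number across diets, and p-values measure the spread between lines. Gene positions and lengths are GENCODE M21's on GRCm38, where 19891 of the genes in the table matched. Promoters are RefSeq's on GRCm38.p6. Other steps ran in Python 3.11.15 (scipy 1.17.1, pandas 2.3.3, numpy 2.4.6, matplotlib 3.10.9).

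The 10 genes and all lists were chosen with earlier results of these data known. The genes named are the 10, every gene of a pathway list at an unadjusted p under 0.05 or else the one with the smallest p, the 3 genes most like Lif, Stat3 and Socs3 among genes with a mean of at least 100, Ddx3y and the defining marker genes Pou5f1 and Col1a1. Of the genes this rule names, 1 is not reported here. Klf4, Tfcp2l1, Myc and Ier3 were added after their values were seen, as were Lum, Krt8, Krt18, Eomes and Elf5. Lists of primitive endoderm markers (defining marker Gata4, 67.6 to 1079) and trophectoderm markers (Cdx2, 5.34 to 97.9) summed to 382 to 4546 and 1226 to 8044. None of the tested markers of the 4 cell type lists had an unadjusted p under 0.05. Alternatives left out each line in turn or LPD 4 and NPD 15 together, added depth as a covariate, used array weights or no trend, set the pseudocount to 0.1 or 10, dropped the filter or raised it to 100, applied quantile normalization or 1 common total, ran an exact Mann-Whitney test in place of limma, or divided by exon-union length.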

Additional observations from a re-analysis of the deposited data

Results flagged for a closer look

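Of 32 groups of 5 lines checked, for 16 genes in each diet, 3 held a line far from the other 4 on the log2 scale, the gap to the nearest being larger than Dixon's critical value for 5 samples allows, where chance gives about 1 in 20. Stat3 stood at 2599 in LPD 20 against 1942 to 2090 in the other LPD lines. Pim3 stood at 4108 in LPD 20 against 2730 to 2914. Pim1 stood at 2893 in NPD 8 against 3423 to 3569 in the other NPD lines. On the linear scale Pim1 in LPD 20, at 6323 against 2686 to 3670 in the other LPD lines, also passed, which makes 4. Without LPD 20 the log2 difference between diets was 0.15 for Stat3, 0.14 for Pim3 and -0.06 for Pim1, and without NPD 8 that of Pim1 was 0.09. Which of these lines is unusual was not tested in further cultures.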

How the results depend on the processing

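The number of genes with a limma adjusted p under 0.1 was 0, and it was 1 with array weights and between 0 and 40 with 1 line left out, the 40 being without LPD 40. Of the 10 genes, 1 had an unadjusted p under 0.05, against 2 with array weights, 2 without both LPD 4 and NPD 15, 0 with the exact Mann-Whitney test and between 0 and 2 with 1 line left out. Of the 50 pathway genes 6 had a p under 0.05, and 2 with depth as a covariate (Stat2 and Klf5), where 600 of all 14354 genes had one. No pair of genes passed adjustment under any alternative run. Signs turned for Il6st, Jak2, Pim1 and Socs3 and for no other of the 10. Il6st was 0.00 with array weights and between -0.13 and 0.01 with 1 line left out. Jak2 was between -0.08 and 0.25, Pim1 between -0.06 and 0.25 and Socs3 between -0.18 and 0.07 with 1 line left out, and Socs3 was 0.01 without both LPD 4 and NPD 15. The cause was not tested. Rescaling to 1 total shifted the median of all genes by -0.03 and moved the share of genes higher in LPD, among those with a p under 0.05, from 56.6% to 40.2%, with 46.2% without a filter. No paired analysis was possible because, per the study's methods, each line came from a different mother and each mother had 1 diet. Depth limits Jak2 and Lif, with 26 and 87 read equivalents in their thinnest lines. The exon-union length moved the levels per kb of Il6st (128), Jak1 (170), Stat3 (206) and Socs2 (219).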
